A study of Homo sapiens with 8 samples.

Results

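The mRNAs examined here encode 10 proteins that write, erase or read N6-methyladenosine (m6A): METTL3, METTL14, WTAP and VIRMA of the writer complex, the erasers FTO and ALKBH5, and the YTH readers YTHDF1, YTHDF2, YTHDF3 and YTHDC1. They were taken as a list of 10 genes out of 20046 protein-coding genes in GENCODE release 44, and every peak that lay within one of them on the same strand was kept. IGF2BP1 was immunoprecipitated (IP) by eCLIP, in which RNA crosslinked to the protein is sequenced beside a size-matched input (SMInput) made without the antibody. The cells were H1299, a human lung carcinoma line of wild-type genotype by its label, given 1.5 µM of the IGF2BP1 inhibitor AVJ16 or 0.01% DMSO as the control for 24 h before UV crosslinking (254 nm, 400 mJ/cm2). Each treatment had 2 IP and 2 SMInput libraries, 8 libraries in all, prepared per the labels in 2 batches from cells of a single thaw, with no batch given for any one library. The authors' files give 1 list of peaks per treatment with both replicates combined, 22311 peaks with DMSO and 22123 with AVJ16. Of these, 18 DMSO peaks and 22 AVJ16 peaks lay in the 10 genes.

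m6A is the commonest internal modification of mRNA and is frequent in the last exon, around the stop codon. METTL3 transfers the methyl group and METTL14 holds the RNA, while WTAP and VIRMA belong to the part of the complex that places it on its targets. FTO and ALKBH5 remove the mark. The YTHDF proteins bind methylated mRNA in the cytoplasm, where YTHDF2 leads it to decay, and YTHDC1 binds it in the nucleus. IGF2BP1 has itself been described as a reader that prefers methylated RNA and stabilises it, so that peaks in these mRNAs place the proteins of the m6A pathway among the transcripts that an m6A reader contacts.

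The following RNA sequences lie inside IGF2BP1 peaks at 6 of the 3’UTR sites, and need not be the bases that the protein recognises. They are the middle 30 nt of the stretch shared by an overlapping pair of DMSO and AVJ16 peaks, read from hg38 on the strand of the gene and written 5′ to 3′. The first 4 are all the 3’UTR peaks with a log2 fold enrichment lower by more than 0.5 in the AVJ16 list, and the last 2 are the shared peaks with the largest positive differences. Capitals mark GGAC, the core of the m6A consensus, CAUA, CAUC or CAUU, the short elements described for IGF2BP proteins, and AAUAAA, the polyadenylation signal, and none of them overlapped another in these windows.
FTO peak 1, chr16:54112275-54112304: cccagcccucuggggaaagacagaacuuag
FTO peak 6, chr16:54114262-54114291: uugugaaccugaccugCAUCacccuuucau
ALKBH5 peak 1, chr17:18208881-18208910: uucuccacuucucaccugcCAUCcacgccc
YTHDF2 peak 1, chr1:28769732-28769761: cCAUUaaucacuucucAAUAAAcgugagau
FTO peak 2, chr16:54112454-54112483: cucauguggcuagugacugcuguauuGGAC
YTHDC1 peak 1, chr4:68313868-68313897 (minus strand): ugacaguugaauugacacuuuuauuggggc
Over all 13 shared 3’UTR peaks of these mRNAs, 1 such window held GGAC (7.69%), 5 held one of the CAU elements (38.5%) and 1 held AAUAAA. In the windows from all 11720 shared DMSO peaks of 3’UTRs, GGAC was present in 6.32%, any of the CAU elements in 36.6% and AAUAAA in 1.41%, so the first 2 shares lay near this background. The search used the transcript strand and covered only these sequences, so that other forms of the m6A consensus would be left unmarked.

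Peaks were present for 6 of the 10 genes with DMSO and for the same 6 genes with AVJ16: VIRMA, FTO, ALKBH5, YTHDF2, YTHDF3 and YTHDC1. No peak of either list lay in METTL3, METTL14, WTAP or YTHDF1. Over all protein-coding genes, 25.8% had a peak with DMSO and 23.2% with AVJ16, a background that includes genes these cells may not express. Of the protein-coding genes bound with DMSO, 79.1% were also bound with AVJ16. Listed peaks start at 3 in log2 fold enrichment, 8 times the SMInput, and at 3 in −log10 p. A gene without a peak has no site in the lists, which can be a site under a threshold or one not kept when peaks were called and replicates combined, and RNA levels, which are not in these lists, were not set beside it. Both lists were normalized to their own inputs, and no value per replicate or read count is given, so that depth is unknown and no test or replicate error stands behind the differences below. Fewer RNA molecules and less binding per molecule cannot be told apart where a site is missing from a list.

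The genes without a peak differed among themselves in how much 3’UTR they offer. METTL3, the catalytic subunit, has a 3’UTR of 120 nt in its canonical transcript, WTAP 708 nt, YTHDF1 1279 nt and METTL14 5128 nt. Among protein-coding genes with a 3’UTR under 500 nt, 9.01% had a DMSO peak (95% Wilson interval 8.33% to 9.74%), against 47.5% (45.4% to 49.7%) of those with 4000 nt or more. By its canonical transcript, METTL14 therefore lay in the length class where peaks were most frequent and METTL3 in that where they were rarest. Other annotated transcripts have a 3’UTR of 514 nt for METTL14, 341 nt for YTHDF1 and up to 1042 nt for WTAP. Which of them these cells express is not known from these lists. In the same order of genes, the canonical mRNAs of METTL3, WTAP, YTHDF1 and METTL14 hold 9, 8, 16 and 16 copies of GGAC.

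**Figure D1:**
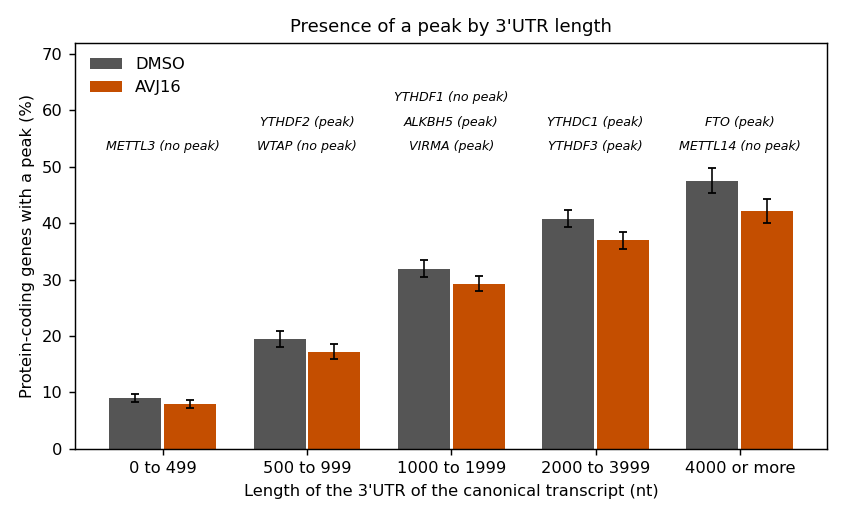
Share of protein-coding genes with at least 1 peak (y axis, percent) by the 3’UTR length of the canonical transcript (x axis, nt) in the DMSO list (grey) and the AVJ16 list (orange), with 95% Wilson intervals as error bars. The share with DMSO goes from 9.01% in the shortest class to 47.5% in the longest, and the names place the 10 genes in their classes with or without a peak.

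Among the peaks of the 6 bound mRNAs, 14 of 18 with DMSO (77.8%, interval 54.8% to 91.0%) and 17 of 22 with AVJ16 (77.3%, 56.6% to 89.9%) lay in the 3’UTR. The others, 4 and 5 peaks, lay in the coding sequence (CDS). No peak lay in an intron or a 5’UTR, classes that hold few peaks in the whole lists as well (distal introns 5.35% with DMSO and 2.04% with AVJ16). Over all peaks, the 3’UTR held 74.5% with DMSO and 74.9% with AVJ16, so the whole-list shares lay inside the counting intervals of these mRNAs. Those intervals take the peaks as independent, although all FTO peaks lay in the 3’UTR and all VIRMA peaks in the CDS. After the stop codon, 9 of the 14 DMSO 3’UTR peaks ended within 1000 nt (64.3%), against 50.7% of all DMSO peaks inside a canonical 3’UTR. With AVJ16 the counts were 11 of 17 (64.7%) against 50.3%.

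**Figure D2:**
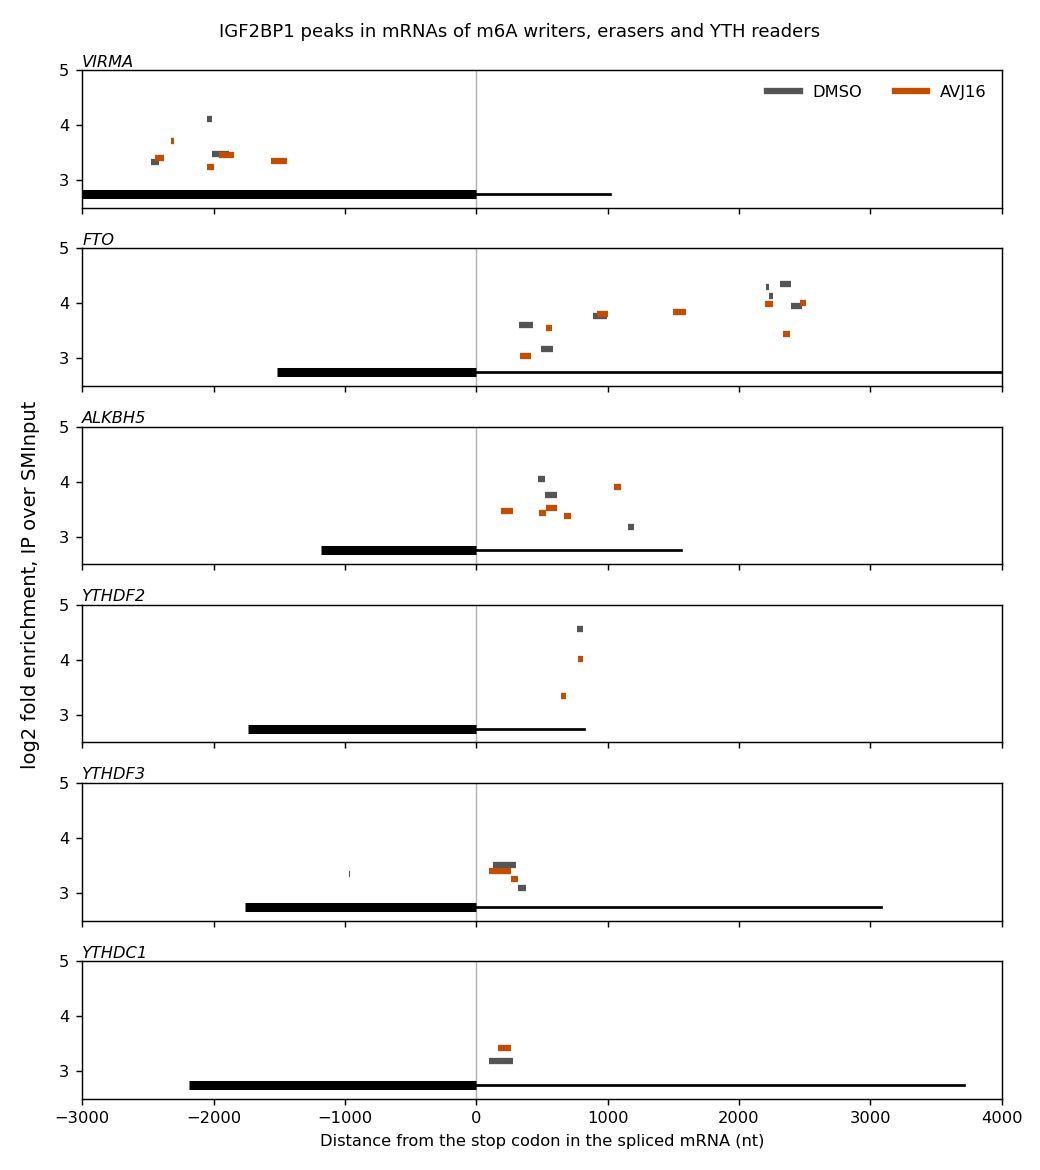
Peaks in the 6 bound mRNAs, drawn as bars from their first to their last nt at the height of their log2 fold enrichment of IP over SMInput (y axis), against the distance from the stop codon in the spliced canonical transcript (x axis, nt). DMSO peaks are grey, AVJ16 peaks orange, the thick black line is the CDS and the thin one the 3’UTR, both cut at the edges of the plot for VIRMA and FTO. All VIRMA peaks lie in the CDS, and all FTO peaks lie within 2513 nt of the stop codon.

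The enrichment of these mRNAs was moderate within the lists. The 18 DMSO peaks ranged from 3.09 to 4.56 in log2 fold enrichment with a median of 3.68, against a median of 3.63 over all DMSO peaks. The 22 AVJ16 peaks ranged from 3.04 to 4.02 with a median of 3.44, against 3.61 over all AVJ16 peaks. A log2 fold enrichment of 4 was reached by 6 of the 18 DMSO peaks, against 29.4% of all DMSO peaks, and by 1 of the 22 AVJ16 peaks, against 27.4% of all. A second AVJ16 peak, FTO peak 7, was just under it at 3.996. By its best DMSO peak, YTHDF2 stood highest, at 4.56, above 78.4% of the bound protein-coding genes. FTO followed at 4.36 (above 70.5%), VIRMA at 4.12 (59.5%), ALKBH5 at 4.04 (55.9%) and YTHDF3 at 3.51 (25.9%), and YTHDC1 was lowest at 3.18, above 9.10%. Per kb of mRNA, ALKBH5 had the most DMSO peaks, 0.95, and YTHDC1 the fewest, 0.160, while the median of the bound genes was 0.695.

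VIRMA (ENSG00000164944, minus strand of chromosome 8, 94487689 to 94553529), the large scaffold protein of the writer complex, was the only writer of the list with peaks, and all of them lay in its CDS. With DMSO, the peak in exon 13 of 24 had a log2 fold enrichment of 3.33 (−log10 p 6.54), and the neighbouring peaks in exon 14 had 4.12 (11.5) and 3.48 (13.8). With AVJ16, exon 13 held peaks of 3.40 and 3.72, exon 14 held peaks of 3.24 and 3.45, and exon 16 held a peak of 3.34 with a −log10 p of 18.2. The peaks of both treatments thus lay well inside the reading frame, from −2474 to −1438 nt relative to the stop codon, while the 3’UTR of 1017 nt held none. The strongest DMSO peak, at the start of exon 14 (94510613 to 94510653), was lower by 0.88 in the AVJ16 list, whereas the other shared peaks differed by 0.06 and −0.03. The peak in exon 16 and 1 of the peaks in exon 13 were listed with AVJ16 only. Among protein-coding genes with 3 or more peaks, 4.08% with DMSO and 5.50% with AVJ16 had all of them in the CDS.

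FTO (ENSG00000140718, plus strand of chromosome 16, 53701692 to 54158512), the eraser of the obesity-associated locus, had 7 peaks in each list, the most of the 10 genes. All lay in the last exon, exon 9, in the first 2513 nt of a canonical 3’UTR of 10026 nt. A shorter annotated transcript, ENST00000463855.1, ends its 3’UTR of 2548 nt at 54114463, which is 72 nt after the last DMSO peak and 35 nt after the last AVJ16 peak. No peak thus lay in the part that only FTO transcripts reaching beyond this end hold. Further annotated transcripts have a 3’UTR of up to 2409 nt, and which of them these cells express is not known from these lists. The DMSO peaks formed an upstream set, peaks 1 to 3 between 324 and 992 nt after the stop codon, and a downstream set, peaks 4 to 7 between 2204 and 2476 nt.

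In the upstream set of FTO, peak 1 (54112239 to 54112347) had a log2 fold enrichment of 3.61 with DMSO and its partner one of 3.04 with AVJ16. Peak 2 (54112411 to 54112495) had 3.17 and 3.56, the largest positive difference among the 16 shared peaks of the 6 mRNAs, at 0.39. Peak 3 (54112807 to 54112907) had 3.78 and 3.80. Of these neighbouring sites, only peak 1 differed by more than 0.5. Peak 2, at 3.17 with DMSO, could not have been lower by more than 0.5, as the lists start at 3. In the downstream set, the touching peaks 4 and 5 had 4.29 and 4.14 with DMSO and shared a single AVJ16 partner of 3.99. Peak 6 (54114230 to 54114310), the strongest of FTO, had 4.36 with DMSO and 3.44 with AVJ16, a difference of −0.92 that was the lowest among the 16 shared peaks. Peak 7 had 3.95, and its partner, which overlapped it by 9 nt, had 3.996. An AVJ16 peak of 3.84 between the sets (54113410 to 54113514) had no DMSO counterpart.

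ALKBH5 (ENSG00000091542, plus strand of chromosome 17, 18183078 to 18209954), the second m6A demethylase, had 3 DMSO peaks and 5 AVJ16 peaks, all in a 3’UTR of 1558 nt in exon 4 of 4. Touching DMSO peaks from 18208869 to 18208921 and from 18208922 to 18209011 had log2 fold enrichments of 4.04 and 3.76 and −log10 p values of 21.0 and 25.8. Their AVJ16 partners covered almost the same nt, with 3.43 and 3.52, so that the first was lower by more than 0.5 and the second was not. Around this site the AVJ16 list held further peaks of 3.47, 3.37 and 3.91 without a DMSO counterpart, and the DMSO list a peak of 3.17 without an AVJ16 counterpart. The AVJ16 peak of 3.91 (18209442 to 18209497) was the strongest of ALKBH5 in that list. The nt covered went from 185 with DMSO to 340 with AVJ16, of which 136 were shared, while the best enrichment went from 4.04 to 3.91.

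**Figure D3:**
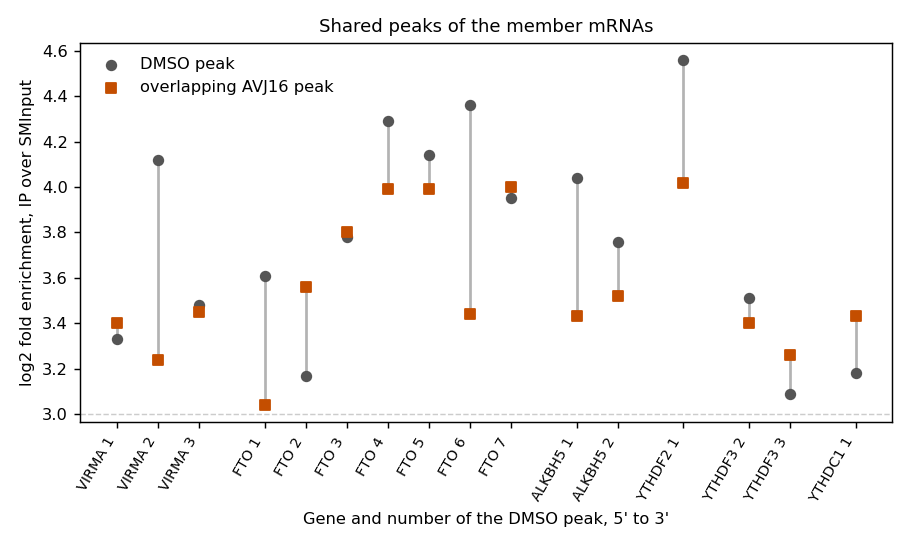
Log2 fold enrichment of IP over SMInput (y axis) of each shared DMSO peak (grey circles) and of the AVJ16 peak that overlaps it most (orange squares), by gene and peak number from 5′ to 3′ (x axis). The dashed line marks the threshold of the lists at 3. The longest lines are those of FTO peak 6, from 4.36 to 3.44, and VIRMA peak 2, from 4.12 to 3.24.

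YTHDF2 (ENSG00000198492, plus strand of chromosome 1, 28736621 to 28769775), the reader that recruits the deadenylation machinery, had a single DMSO peak, the most enriched of the 18. It reached 4.56 in log2 fold enrichment at a −log10 p of 15.0, ran from 28769720 to 28769764 and ended 11 nt before the annotated end of the mRNA. Its AVJ16 partner (28769730 to 28769766) had 4.02 and a −log10 p of 8.98, and was the most enriched of the 22 AVJ16 peaks. The shared stretch holds the polyadenylation signal AAUAAA printed above, which ends 22 nt before the annotated 3′ end. Of the DMSO peaks inside a canonical 3’UTR, 2.22% ended within 50 nt of the mRNA end. A second AVJ16 peak of 3.34 (28769595 to 28769631) lay upstream and had no DMSO counterpart. YTHDF1, the paralog for which a role in translation was described, had no peak in a 3’UTR of 1279 nt.

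YTHDF3 (ENSG00000185728, plus strand of chromosome 8, 63168553 to 63212786), described as working together with both other YTHDF proteins, had a broad site just after its stop codon. The DMSO peak from 63209832 to 63210010 was 179 nt long and had a log2 fold enrichment of 3.51, with the highest −log10 p of the 18 peaks, 44. Its AVJ16 partner (63209804 to 63209969) had 3.40 and a −log10 p of 41.4, a difference of −0.11. The next DMSO peak, of 3.09, overlapped an AVJ16 peak of 3.26 by 2 nt. A CDS peak of 11 nt in exon 4 of 5, with 3.34, was in the DMSO list only.

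YTHDC1 (ENSG00000083896, minus strand of chromosome 4, 68310387 to 68350090), the nuclear reader, resembled YTHDF3 in the place of its site. Its single DMSO peak (68313820 to 68314002) was 183 nt long, lay between 97 and 279 nt after the stop codon and had a log2 fold enrichment of 3.18 with a −log10 p of 28.2. The AVJ16 peak (68313834 to 68313932) lay wholly inside it, with 3.43 and a −log10 p of 22.1. YTHDC1 was the only one of the 6 mRNAs whose best peak was more enriched in the AVJ16 list. The readers thus differed in position, YTHDF2 being contacted at the very end of its 3’UTR and YTHDF3 and YTHDC1 close to the stop codon.

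Set side by side, 16 of the 18 DMSO peaks overlapped an AVJ16 peak by at least 1 nt, and 15 of the 22 AVJ16 peaks overlapped a DMSO peak. Over the whole lists these shares were 66.2% and 70.8%. Subtracting the DMSO from the AVJ16 log2 enrichment gave a median of −0.13 over the 16 shared peaks, and the differences ranged from −0.92 to 0.39. They were negative for 10 peaks and positive for 6. With an overlap of at least 50% of both peaks, 12 pairs remained, without 3 of the 6 positive ones, and the median was −0.27. Pairing from the AVJ16 peaks gave −0.24. The median over all shared peaks was −0.061, with an SD across peaks of 0.556. A difference below −0.5 was found for 5 of the 16, in VIRMA, FTO (2 peaks), ALKBH5 and YTHDF2, against 20.1% of all shared peaks. None of the 16 was higher by more than 0.5, against 12.6% of all. The size of 0.5 is that of the study's filter for changed peaks, without the test on reads that goes before it there. The measure differs too. The study averaged normalized reads of both treatments over the same cluster, whereas the values here belong to separately listed peaks that overlap. Since the lists start at 3, a shared DMSO peak under 3.5 could not be lower by more than 0.5, which applied to 5 of the 16. The 5 lower peaks were thus among 11 that could be, against 28.8% of all shared DMSO peaks from 3.5 upwards. Over the whole list, being lower went with a high DMSO value. Of all shared DMSO peaks at 4 or more, 41% were lower by more than 0.5 and 6.19% higher. Of those under 4, 7.02% were lower and 16.6% higher. In the members, 4 of the 6 shared peaks at 4 or more were lower, and 1 of the 10 under 4.

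**Figure D4:**
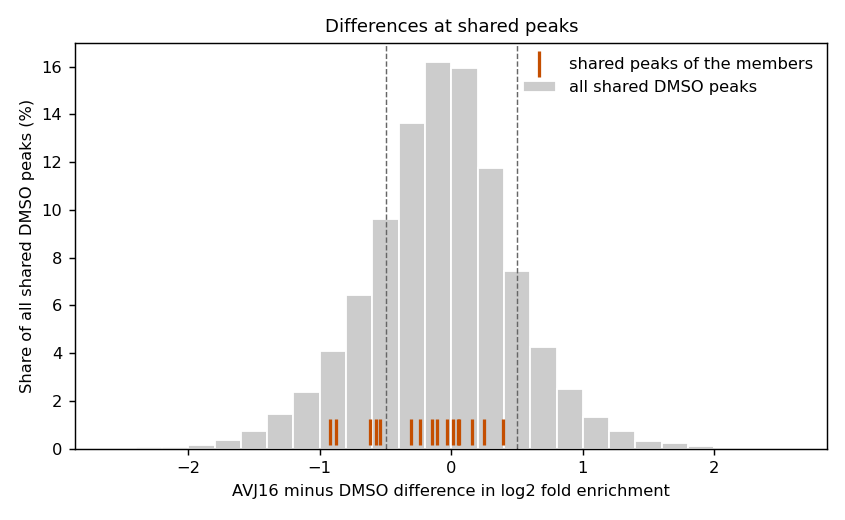
Differences in log2 enrichment, AVJ16 minus DMSO (x axis), for all 14759 shared DMSO peaks, as a histogram of their share (grey, y axis in percent), with the 16 shared peaks of the 6 bound mRNAs as orange ticks whose height carries no value. Dashed lines mark −0.5 and 0.5, and 5 ticks lie left of the first and none right of the second.

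The 7 AVJ16 peaks without a DMSO counterpart lay in VIRMA (2), FTO (1), ALKBH5 (3) and YTHDF2 (1), and none lay in YTHDF3 or YTHDC1. Their log2 fold enrichments ranged from 3.34 to 3.91 with a median of 3.47, against 3.35 for all AVJ16 peaks without a counterpart. In nt, peaks covered 1407 with DMSO and 1605 with AVJ16 over the 6 mRNAs, of which 946 were covered in both. This is 67.2% of the DMSO and 58.9% of the AVJ16 length, against 56.2% and 62.0% over the whole lists. When touching peaks were joined, the 22 AVJ16 peaks formed 21 separate sites and the 18 DMSO peaks 14.

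The m6A core sequence was also counted over the whole mRNAs, as GGAC and GGACU only. The canonical mRNAs of the 6 bound genes hold 122 copies of GGAC and 28 of GGACU over 35282 nt. With each peak widened by 25 nt on both sides, DMSO peaks took up from 2.95% (YTHDF2) to 9.02% (ALKBH5) of an mRNA and AVJ16 peaks from 2.39% (YTHDC1) to 17.2% (ALKBH5). In these stretches, 3 GGAC copies lay inside DMSO peaks and 5 inside AVJ16 peaks, and the only GGACU was that in exon 13 of VIRMA, inside a peak of each list. Of the 14 DMSO 3’UTR peaks, taken as windows of 100 nt around their centres, 2 held GGAC (14.3%), against 19.2% of all DMSO 3’UTR peaks in windows of the same length, and none held GGACU, against 7.37%. At least 1 of CAUA, CAUC and CAUU was present in 12 of the 14 (85.7%), against 80.2%. Taken singly, CAUC was present in 8 (57.1% against 34.8%), CAUU in 8 (57.1% against 53.6%) and CAUA in 4 (28.6% against 32.8%). Of the 17 AVJ16 3’UTR peaks, widened by 25 nt, 3 held GGAC (17.6%), against 23.1% of all. These counts are small, windows of touching peaks overlap, and whether any adenosine in them is methylated was not measured.

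Of 23 other genes of the pathway, 11 had a peak with DMSO and 10 with AVJ16, and 9 had one in both lists. Over all protein-coding genes, which include genes these cells may not express, 25.8% had a peak with DMSO and 23.2% with AVJ16. Of those bound with DMSO, 79.1% were also bound with AVJ16. Whether the 23 genes differ from genes of like expression and 3’UTR length was not tested. Of further subunits of the METTL3 writer complex, ZC3H13 had 5 with DMSO and 6 with AVJ16, RBM15B 6 and 3, CBLL1 3 and 4, and RBM15 2 and 0, the last in an intron and not in its canonical mRNA. METTL16, which methylates the MAT2A mRNA, had 3 and 1 peaks, and MAT2A, the synthetase of the methyl donor, had 1 and 0. PRRC2A, a reader without a YTH domain, had the most peaks, 20 and 15, followed by CNOT1, the scaffold of the deadenylase that YTHDF2 recruits, with 11 and 12. With touching peaks joined, PRRC2A had 8 sites with DMSO and 9 with AVJ16, and CNOT1 had 8 with each. ELAVL1 had 3 and 5 peaks, FMR1 had 2 and 1, and FXR1 had 0 and 1. Not all DMSO peaks of ELAVL1 lay in its canonical mRNA, which held 0.33 peaks per kb with DMSO and 0.826 with AVJ16. IGF2BP1 itself had 6 and 3 peaks in its mRNA, with a best log2 fold enrichment of 3.86 and 3.47. YTHDC2, METTL5, ZCCHC4, PCIF1, TRMT112, IGF2BP2, IGF2BP3, HNRNPC, HNRNPA2B1, FXR2 and RBMX had no peak in either list.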

How the data were processed

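The eCLIP data comprise 2 IP and 2 SMInput libraries for each treatment. Reads were trimmed with cutadapt, filtered for repeats, mapped with STAR and freed of PCR duplicates before CLIPper called peaks; tool versions are not given in the sources used here. The authors deposited the −log10 p, which stops at 400, and the log2 fold enrichment of IP over SMInput for each peak on hg38, with replicates combined in a way the paper does not describe.

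Peaks were assigned on their strand to genes of GENCODE release 44 and to the first of CDS (stop codon included), 3’UTR, 5’UTR, noncoding exon and intron that they overlapped in protein-coding transcripts, although the Methods name an earlier release. Distances refer to the Ensembl canonical transcript. For every DMSO peak, the AVJ16 peak with the longest overlap was its partner. The depth is unknown, and Wilson intervals cover counting error only. Assignment and pairing were tested on simulated data. Python 3.11.15, numpy 2.4.6, scipy 1.17.1 and matplotlib 3.10.9 were used. The named genes are the 10 members and 23 further pathway genes. Members, lists and motifs were chosen with earlier results of these data known. Alternatives were stricter thresholds and overlaps, joined peaks, exon peaks only, another region order, another limit, centring and pairing from the AVJ16 list.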

Additional observations from a re-analysis of the deposited data

How the results depend on the processing

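No paired analysis was possible because both replicates of a treatment are combined in each list, and for the same reason no replicate could be left out. Of 50 values recomputed under the alternatives for 9 results, 43 stayed within 1.5 times the reported count or within the 95% order-statistic interval of the median difference (−0.57 to 0.06). None reversed, but only the median difference has a sign that could, as a count has none. Part of this was fixed by construction: leaving out intron peaks (9 values) could move nothing, as no member peak lies in an intron, and a limit of 1 could not raise the count of 0 higher peaks. Joining touching peaks could not change the number of bound members. A −log10 p of at least 5 could remove no member peak with DMSO, where the lowest was 5.58. Of the 50 values, the 7 others moved. Requiring a log2 fold enrichment of at least 4 left 1 bound member and 1 peak with AVJ16 (the best peak of FTO, at 3.996, was just under it), 6 peaks with DMSO, of which 5 in the 3’UTR, and 1 shared peak, that of YTHDF2, which was also the 1 shared peak lower by more than 0.5. With a limit of 1, the count of lower peaks was 0. A threshold of 4 can only lower the counts of peaks and bound members, but how far they fall is not fixed by it. With DMSO, 4 members stayed bound at this threshold, against 1 with AVJ16. It kept 6 of 18 member peaks with DMSO, where 29.4% of the whole list passed. With AVJ16 it kept 1 of 22, where 27.4% of the whole list passed. The direction of the median difference was negative under every alternative run, from −0.07 when centred on all shared peaks to −0.54 at the threshold of 4. The value of −0.54 is that of the 1 shared peak left there, and it counted as within the interval only because the interval is wide. Its order-statistic interval includes 0, and takes the 16 shared peaks as independent although 7 of them lie in FTO. A peak near the thresholds can be absent from a list at a level close to that of its counterpart, so that sites listed once have no measured difference.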
